A study of Homo sapiens with 6 samples.

Results

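Gluconeogenesis makes glucose from lactate, amino acids and glycerol, and in the body it is mainly a task of the liver. Its steps beyond reversed glycolysis are pyruvate carboxylase (PC), the phosphoenolpyruvate carboxykinases of cytosol and mitochondria (PCK1 and PCK2), fructose-1,6-bisphosphatase (FBP1), and glucose-6-phosphatase (G6PC) with its transporter of glucose 6-phosphate (SLC37A4). Glucagon acts through cAMP, CREB and the coactivator CRTC2 to raise PCK1, G6PC and PPARGC1A (the coactivator PGC-1α), insulin acts against this by keeping FOXO1 out of the nucleus, and salt-inducible kinases such as SIK1 hold CRTC2 in the cytosol. These 10 genes were followed here, of 57773 in the deposited table, by their symbols in it. PCK1 was chosen by its fall after TGFβ in these same cultures, the measured value that selected it, so its own values are a description without a test. The other 9 were added for their roles, with results of these cultures known.

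The study used these libraries to list genes that respond to TGFβ in HepG2, a cell line from a human liver tumor with hepatocyte features. Cultures received recombinant human TGFB1 ligand at 5 ng/mL or its vehicle for 3 h, with 3 cultures in each group, and RNA was sequenced with a poly(A) mRNA kit. The study's methods state that medium without serum was put on the cells at treatment, in both groups, while the labels name medium with serum for growth. A single tumor line was used. The study's methods call the sequenced cultures biological replicates, and the labels do not say how they were started. In bulk RNA, fewer cells expressing a gene and less RNA per cell cannot be told apart.

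Reads assigned to genes ranged from 60815385 to 100099136 per culture. The treatment labels were checked with PMEPA1, SMAD7 and SKIL, widely known TGFβ targets, and 3 of 3 were higher with TGFβ. All 10 hepatocyte markers on the list had reads in both groups, ALB at a mean RPKM of 3926 with vehicle, where RPKM stands for a read count scaled by gene length and library size. By edgeR's quasi-likelihood test 0 of 10 were called, also 0 at an unadjusted p under 0.05 and 0 with DESeq2 or limma-voom, and with the replicate number as a block 2 were lower, TTR and FGB. The 6 markers of stellate cells and fibroblasts summed to between 1.33 and 1.58 RPKM with vehicle and between 2.21 and 3.70 RPKM with TGFβ, mainly COL1A1 and PDGFRB, while DCN had 16 and 13 reads over the groups and LUM 2 and 0. Of the 6 markers, 2 were tested, with 0 called by edgeR's quasi-likelihood test, DESeq2 or limma-voom. With each of these tools 2 were higher at an unadjusted p under 0.05, and with the block 2 were called higher. Over all tested genes the block called 8.08% higher and 3.75% lower. No such share was taken for the unadjusted p, so nothing is read from those counts, here or below. Whether these markers have a part in the results below was not tested. The 3 endothelial markers in the table summed to between 0.0211 and 0.0286 RPKM, and the 5 immune markers to between 14.2 and 15.9 RPKM, almost all of it from CD68, with PTPRC at 0 and 1 reads and CD3E at 0 reads.

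Differences are given as log2 fold changes of TGFβ over vehicle from edgeR, with levels in TMM-scaled CPM (read counts scaled by library size), and a call means a Benjamini-Hochberg FDR under 0.05 from edgeR's quasi-likelihood test over 22747 genes. All 10 members passed the filter on low counts, FBP1 through TGFβ cultures 1 and 2 and vehicle culture 1. Of the 9 members besides PCK1, 2 were lower, G6PC and PPARGC1A, and 1 was higher, SIK1. Over the tested genes 1.01% were lower and 3.11% were higher, 4.12% in all. The values of TGFβ and vehicle did not overlap for 5 of the 10 members, 2 with TGFβ above and 3 with TGFβ below, against 18.6% of the tested genes, 10.4% above and 8.23% below. Since the members were chosen with these results known, nothing is read from these shares. The median log2 fold change was 0.10 over the 9 members, with a range from -0.91 to 1.05, and -0.01 over the tested genes.

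**Figure D1:**
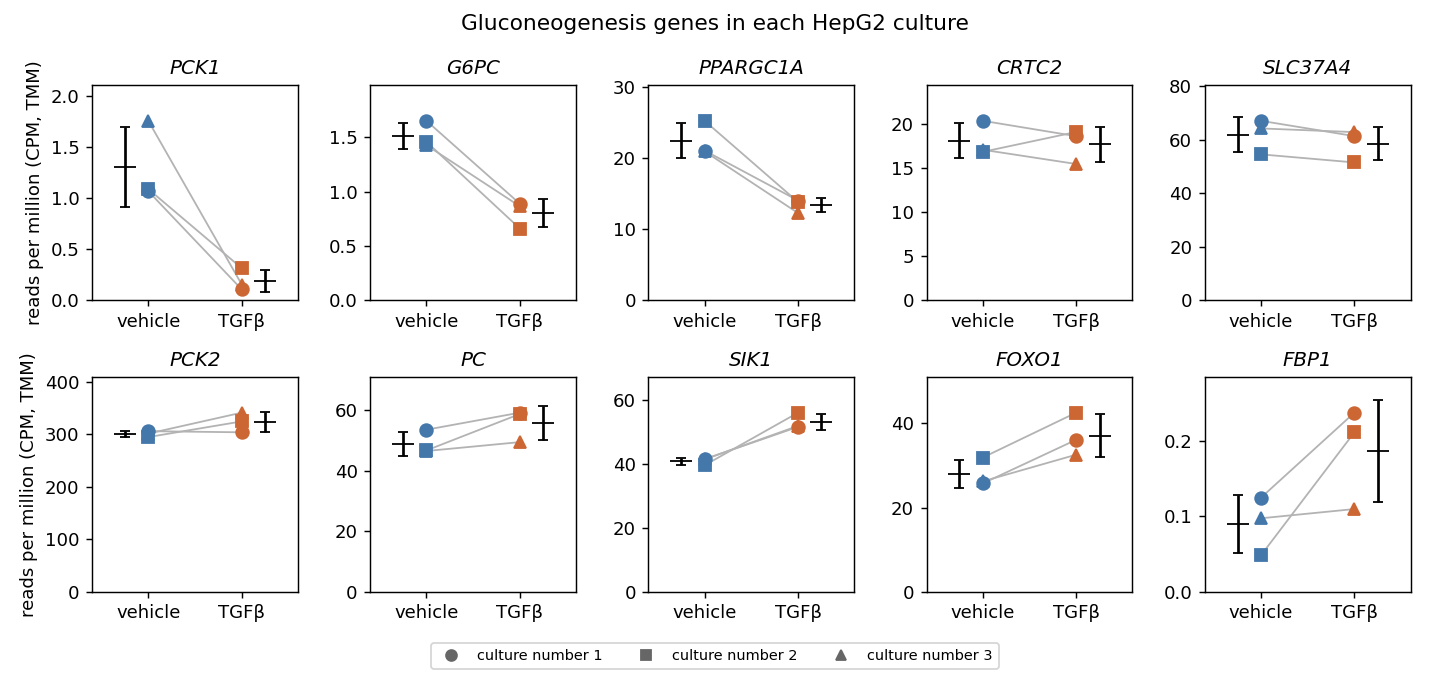
CPM after TMM scaling (each vertical axis from 0) of the 10 genes in each culture, with grey lines joining cultures of the same number and black bars for the mean ± SD of 3 cultures. All TGFβ cultures lie below all vehicle cultures for PCK1, G6PC and PPARGC1A and above them for SIK1 and FOXO1, and the groups overlap for the other 5 genes.

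The enzymes are taken first, from the cytosolic carboxykinase. PCK1 converts oxaloacetate to phosphoenolpyruvate in the cytosol and is the classic transcriptional target of fasting hormones in liver. Its place in hg19 is chromosome 20, 56136136 to 56141513, plus strand. Vehicle cultures 1, 2 and 3 held 94, 90 and 108 reads of PCK1, and TGFβ cultures 1, 2 and 3 held 10, 25 and 11. The highest TGFβ culture stood below the lowest vehicle culture. In CPM it went from 1.30 ± 0.392 (SD, n = 3) with vehicle to 0.188 ± 0.109 (SD, n = 3) after TGFβ. The fitted log2 fold change was -2.79, with a standard error of 0.39, or 6.90-fold lower. None (0) of the 22747 tested genes had a more negative log2 fold change. Between cultures of the same number the log2 ratio was -3.37, -1.81 and -3.54. Culture 2, in which PCK1 kept most reads with TGFβ, was the least changed, and without TGFβ replicate 2 the fitted value was -3.37.

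PCK2, the mitochondrial carboxykinase, is encoded by a separate gene on chromosome 14 (24563262 to 24579807, plus strand). It had 306, 295 and 302 CPM in the vehicle cultures and 304, 325 and 342 CPM in the TGFβ cultures, so that the groups overlapped. Its log2 fold change was 0.10 (95% interval -0.05 to 0.26, FDR 0.636 with edgeR). Per length, PCK2 was 354, 335 and 212 times the level of PCK1 in vehicle cultures 1, 2 and 3, and 3631, 1289 and 2789.7 times in the TGFβ cultures. The ratio is taken within a culture and does not depend on the scaling between libraries. PCK2 shares its whole span of 16546 bases with NRL on the opposite strand, which had between 608 and 868 reads against 18565 to 29458 reads for PCK2, and the use of strand in counting is not given in the sources used here.

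G6PC encodes the catalytic subunit that releases free glucose, the last step of the path. Its place is chromosome 17, 41052814 to 41065386, plus strand. Vehicle cultures held 146, 121 and 88 reads of G6PC, and TGFβ cultures 86, 53 and 63. Scaled for library size these were 1.65, 1.46 and 1.43 CPM with vehicle and 0.888, 0.659 and 0.864 CPM with TGFβ, without overlap. G6PC fell by 46.9% (log2 fold change -0.91 with standard error 0.21, FDR 0.0366 with edgeR). The call was lost in 5 of 6 fits with a culture left out. Leaving out any culture but TGFβ replicate 3 gave an FDR between 0.0621 and 0.153. The log2 fold changes ranged from -1.002 to -0.80 over all 6 such fits, which were run without the block. With the block and all cultures the FDR was 0.0073.

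The other glucose-6-phosphatase, G6PC3, is found in most tissues. It was at 58.6 ± 5.09 CPM (SD, n = 3) with vehicle and 61.9 ± 4.21 CPM with TGFβ, a log2 fold change of 0.08 (95% interval -0.12 to 0.27, FDR 0.806 with edgeR). Per length, G6PC3 was 28.1 ± 1.16 times the level of G6PC with vehicle and 56.6 ± 7.62 times with TGFβ (SD, n = 3). SLC37A4, the transporter that brings glucose 6-phosphate to G6PC in the endoplasmic reticulum, had 67.1, 54.5 and 64.2 CPM with vehicle and 61.3, 51.5 and 62.8 CPM with TGFβ. The groups overlapped and the log2 fold change was -0.08 (95% interval -0.31 to 0.15, FDR 0.833). It shares 1341 bases with TRAPPC4 on the opposite strand, which had between 3392 and 5420 reads against 3953 to 5942 reads for SLC37A4.

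PC makes oxaloacetate from pyruvate in mitochondria, the entry step from lactate and alanine. It had 53.6, 46.8 and 46.6 CPM with vehicle and 59.3, 58.8 and 49.5 CPM with TGFβ. TGFβ culture 3 fell within the vehicle range, and the log2 fold change was 0.19 (95% interval -0.02 to 0.40, FDR 0.448 with edgeR). PC shares 3829 bases with LRFN4 on the opposite strand, which had between 553 and 1085 reads against 2868 to 5743 reads for PC. FBP1 removes a phosphate from fructose 1,6-bisphosphate, against phosphofructokinase. It had 11, 4 and 6 reads with vehicle and 23, 17 and 8 reads with TGFβ. Its log2 fold change of 1.05 had a 95% interval from 0.01 to 2.10 and missed the threshold (FDR 0.355 with edgeR). The groups overlapped, with few reads in each culture. Per length, PFKL (liver phosphofructokinase) was between 309 and 640 times the level of FBP1 in the vehicle cultures and between 166 and 322 times in the TGFβ cultures.

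**Figure D2:**
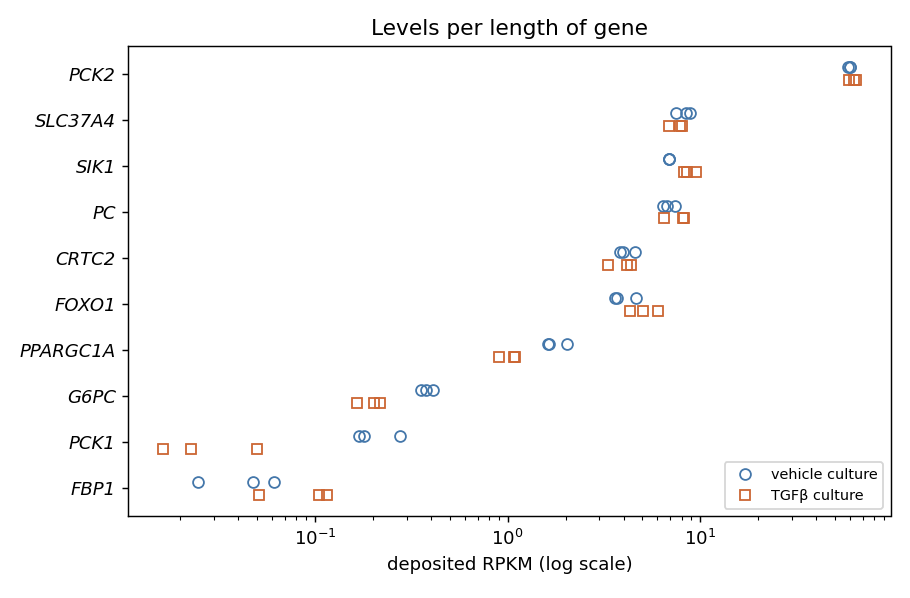
Deposited RPKM of the 10 genes in each vehicle culture (circles) and TGFβ culture (squares), on a log axis and ordered by the vehicle mean. The levels run from 59.4 RPKM for PCK2 to 0.0444 RPKM for FBP1 with vehicle.

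The order of the levels per length with vehicle set the mitochondrial and general genes far above PCK1, G6PC and FBP1. Such levels, and the ratios between genes, depend on the deposited gene lengths. These were 5164 bases of a span of 5378 for PCK1 and 1668 bases of a span of 37117 for FBP1. PCK2 led at 59.4 ± 0.591 RPKM (SD, n = 3). SLC37A4 followed at 8.27 ± 0.706 RPKM, SIK1 at 6.91 ± 0.0273 RPKM and PC at 6.83 ± 0.502 RPKM, and SIK1 and PC did not differ beyond their spread. CRTC2 at 4.14 ± 0.405 RPKM and FOXO1 at 3.98 ± 0.582 RPKM overlapped as well. PPARGC1A was at 1.77 ± 0.237 RPKM, G6PC at 0.380 ± 0.0282 RPKM, PCK1 at 0.208 ± 0.060 RPKM and FBP1 at 0.0444 ± 0.0184 RPKM, with no overlap between neighbors among these 4. With TGFβ, PCK1 stood at 0.0296 ± 0.0179 RPKM, below FBP1 at 0.0905 ± 0.0347 RPKM.

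Among the regulators, PPARGC1A fell. Its protein joins FOXO1 and HNF4A on gluconeogenic promoters. Its place is chromosome 4, 23756664 to 23905712, minus strand. It had 21.1, 25.3 and 21.0 CPM in the vehicle cultures and 14.03, 13.8 and 12.3 CPM in the TGFβ cultures, with a clear gap between the groups. The log2 fold change was -0.75 (standard error 0.11, FDR 0.00331 with edgeR), a fall of 40.4%. It passed the FDR threshold in 13 of 13 alternatives, with values from -0.80 to -0.66.

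SIK1 rose. Its place is chromosome 21, 44834395 to 44847008, minus strand. It had 41.5, 39.6 and 41.4 CPM with vehicle and 51.6, 56.0 and 51.9 CPM with TGFβ, with SDs of 1.08 and 2.48 CPM (n = 3) and no overlap. The log2 fold change was 0.38 (standard error 0.07, FDR 0.0150 with edgeR), a rise of 30.3%. The FDR was 0.0884 without vehicle replicate 2, 0.0695 without vehicle replicate 3 and 0.0844 without TGFβ replicate 2. With the block and all cultures it was 0.00108.

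FOXO1, the insulin-restrained activator of PCK1 and G6PC, had 25.7, 31.9 and 26.2 CPM with vehicle and 36.1, 42.5 and 32.5 CPM with TGFβ. The lowest TGFβ culture exceeded the highest vehicle culture, and culture 2 was the highest of both groups. The log2 fold change was 0.41 (standard error 0.12), which missed the threshold (FDR 0.108 with edgeR). It passed with the replicate number as a block (FDR 0.000809), without a filter on low counts (FDR 0.0289) and with DESeq2 (FDR 0.0439), and missed it in the other 10 alternatives. Same-numbered cultures deviated together in this series, and the log2 ratios within numbers were 0.49, 0.42 and 0.31. CRTC2, the CREB coactivator, had 20.4, 16.8 and 17.1 CPM with vehicle and 18.6, 19.1 and 15.5 CPM with TGFβ. Its log2 fold change was -0.03 (95% interval -0.29 to 0.23, FDR 0.951), with groups that overlapped.

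For the 5 members whose groups did not overlap, the exact permutation test of log2 CPM (two-sided) could give no P below 0.1 with 3 cultures against 3.

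**Figure D3:**
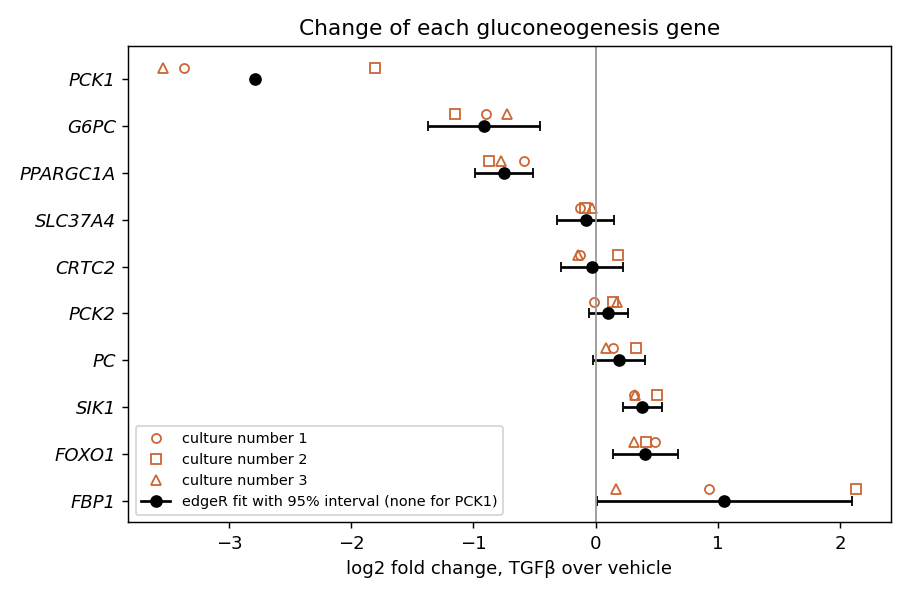
Log2 fold change of TGFβ over vehicle for the 10 genes. Black points and bars are the edgeR estimate with its 95% interval, left out for PCK1, and open orange symbols are the ratios between cultures of the same number. The intervals of G6PC and PPARGC1A lie below 0, those of SIK1, FOXO1 and FBP1 above 0 (FOXO1 and FBP1 without a call), and those of SLC37A4, CRTC2, PCK2 and PC cross 0.

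The promoters of G6PC, which fell, and SIK1, which rose, are shown because both genes are known targets of cAMP and CREB. The windows are the 250 bases before the gene start in RefSeq on GRCh38.p14, a later build than that of the deposited table, read on the gene's strand. Capitals mark the core SMAD motif (CAGAC or GTCTG) and the half-site of the cAMP response element (TGACG or CGTCA).
G6PC (chr17:42900549-42900798, plus strand): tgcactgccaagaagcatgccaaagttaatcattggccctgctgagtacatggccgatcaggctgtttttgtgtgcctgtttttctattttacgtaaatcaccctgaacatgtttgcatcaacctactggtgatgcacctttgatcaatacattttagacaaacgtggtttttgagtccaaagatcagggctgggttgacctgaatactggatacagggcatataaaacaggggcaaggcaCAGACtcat
SIK1 (chr21:43427132-43427381, minus strand): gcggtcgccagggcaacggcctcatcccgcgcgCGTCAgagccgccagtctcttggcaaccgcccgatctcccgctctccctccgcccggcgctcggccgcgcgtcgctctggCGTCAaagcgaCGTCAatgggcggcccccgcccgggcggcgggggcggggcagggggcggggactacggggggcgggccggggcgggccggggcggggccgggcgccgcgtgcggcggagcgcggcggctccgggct
The G6PC window held 1 SMAD core, from -9 to -5 counted from the gene start, and 0 half-sites with these exact letters. The SIK1 window held 3 half-sites, starting at -217, -137 and -126, and 0 SMAD cores. PC and FBP1, neither of them called, also held matches: 3 half-sites and 1 SMAD core in PC, and 2 SMAD cores in FBP1. Of 35116 promoter windows of this length, 38.0% held a SMAD core and 21.2% a half-site, and among the 7 members whose RefSeq window was used 3 held the former and 2 the latter. The core of the insulin response element (TGTTTTG, both strands) was in 4.3% of all windows and the forkhead core (TGTTTAC, both strands) in 2.98%, and 0 of the 7 members held either. Such matches are letters in a window and not sites of binding. Only these exact letters were sought, so a count of 0 does not show that a window lacks a variant form of an element. PCK1 and CRTC2 were not among the windows. The RefSeq entry of PPARGC1A spans 680885 bases against 149049 in the deposited table, so its window belongs to another start site and was neither counted nor shown.

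The neighborhood of PCK1 held 14 other genes of the table within 250 kb, of which 5 were tested. PMEPA1, which encodes a membrane protein that restrains TGFβ receptor signaling, lies 81.9 kb beyond the end of PCK1, on the opposite strand (56223448 to 56286592). It went from 0.173 CPM with vehicle to 3.38 CPM with TGFβ (log2 fold change 4.305 with standard error 0.28, FDR 4.41e-05 with edgeR). PMEPA1 was thus higher and PCK1 lower with TGFβ. The other 4 lay between 151.7 and 201.3 kb on the other side: RAE1, an mRNA export factor, had a log2 fold change of -0.06 (FDR 0.832), RBM38, an RNA-binding protein, of 0.18 (FDR 0.419, and 0.0411 with the block), RP4-800J21.3 of 0.19 (FDR 0.730) and MTRNR2L3 of 0.13 (FDR 0.872).

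**Figure D4:**
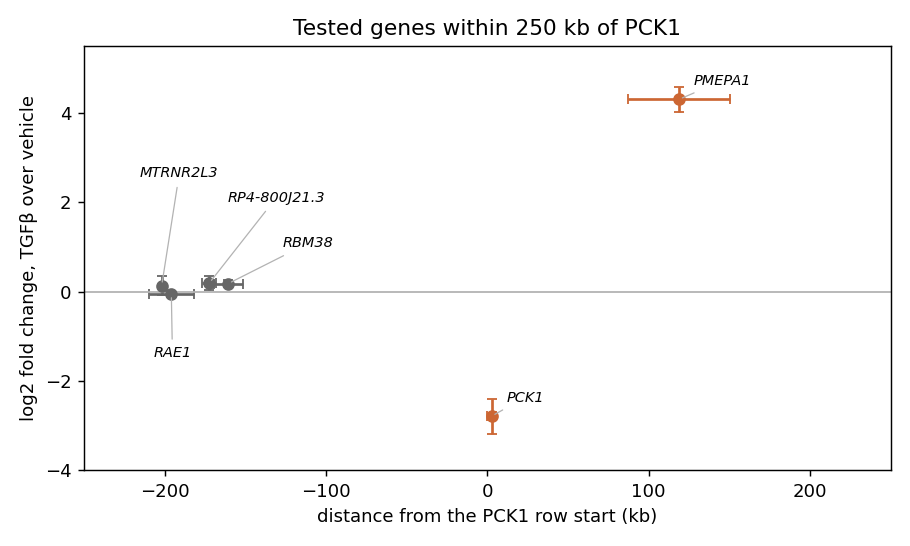
Log2 fold change (± standard error) of PCK1 and of the tested genes within 250 kb, against the distance of the gene's middle from the start of PCK1 in kb, with horizontal bars for the extent of each gene. PMEPA1 stands at 4.305 and PCK1 at -2.79, while the 4 genes on the other side lie between -0.06 and 0.19.

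Beyond the members, 114 other genes of glucose metabolism and its control were grouped in 8 lists, of which 104 were tested. With TGFβ 7 rose and 4 fell, where 3.11% of all tested genes were higher and 1.01% lower. The replicate block gave 24 higher and 10 lower, against 8.08% and 3.75% of the tested genes. The same shares stand beside the counts of each list below. The median log2 fold change of the 104 was 0.04, with a range from -1.54 to 3.66. The 12 enzymes of the steps shared by glycolysis and gluconeogenesis had a median of 0.04. Of these only ENO2, the neuronal form of enolase, was called, at 43.9 ± 4.49 CPM with vehicle and 63.9 ± 5.68 CPM with TGFβ (SD, n = 3, log2 fold change 0.54, FDR 0.0121 with edgeR). Its FDR was 0.0591 without vehicle replicate 3 and 0.0608 without TGFβ replicate 2, and 7.05e-05 with the block. GAPDH, the most abundant of them, had a log2 fold change of 0.06 (95% interval -0.14 to 0.26).

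Of the glycolytic one-way steps and glucose transporters, 1 of 14 tested was higher and 0 were lower, by edgeR, DESeq2 and limma-voom, and with the block 3 were higher and 1 was lower. The gene called without the block was PFKFB3, which makes fructose 2,6-bisphosphate, an activator of phosphofructokinase and inhibitor of FBP1. It had 3.10, 3.46 and 2.73 CPM in the vehicle cultures and 14.5, 17.1 and 13.5 CPM in the TGFβ cultures, far apart. The rise was 4.84-fold (log2 fold change 2.28, standard error 0.14, FDR 3.73e-05 with edgeR) and passed the threshold in 13 of 13 alternatives. SLC2A1, the glucose transporter with most RNA in the list, had 486, 502 and 480 CPM with vehicle and 559, 682 and 559 CPM with TGFβ (log2 fold change 0.30, FDR 0.130, and 0.00528 with the block). HK2, a hexokinase, had a log2 fold change of -0.41 (FDR 0.206, and 0.000363 with the block), and PFKP, the platelet phosphofructokinase, of 0.51 (FDR 0.530, and 0.0452 with the block), both with groups that overlapped. PKM and PFKL had log2 fold changes of 0.06 (95% interval -0.14 to 0.26) and 0.11 (95% interval -0.10 to 0.32).

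Among the 7 tested glycogen genes 1 was higher, UGP2, which makes UDP-glucose. It rose from 154 ± 4.95 CPM to 205 ± 4.27 CPM (SD, n = 3), a log2 fold change of 0.42 (FDR 0.00623 with edgeR), and passed in 13 of 13 alternatives. With the block 2 were higher, the other being PYGL, the liver glycogen phosphorylase (log2 fold change 0.17, FDR 0.351, and 0.0436 with the block). PYGB, the glycogen phosphorylase with most RNA, had a log2 fold change of 0.03 (FDR 0.927). Of the 16 tested genes of substrate supply 0 were called by edgeR's quasi-likelihood test or limma-voom, 1 by DESeq2 (GPT2), and 2 had an unadjusted p under 0.05 in edgeR, and with the block 1 was higher and 1 was lower, GPT2 (alanine aminotransferase, FDR 0.000374) and GK (glycerol kinase, FDR 0.00120). GLUD1, glutamate dehydrogenase, led this list in RNA and had a log2 fold change of -0.03 (FDR 0.944). Of the 4 tested isozymes 0 were called by edgeR, DESeq2 or limma-voom, 1 had an unadjusted p under 0.05, and with the block 1 was higher, SLC37A2 (FDR 0.0283).

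The 37 other regulators gave 2 lower and 2 higher calls, and with the block 5 lower and 12 higher. PPARGC1B, the paralog of PPARGC1A, fell from 2.54, 3.54 and 2.84 CPM in the vehicle cultures to 1.05, 1.18 and 0.823 CPM in the TGFβ cultures. This was a fall of 65.6% (log2 fold change -1.54 with standard error 0.21, FDR 0.00273 with edgeR). Both coactivators of this family in the lists thus fell. KLF15, a zinc-finger factor of the fasting liver that promotes the use of amino acids for glucose, fell from 7.05, 7.36 and 7.15 CPM to 2.88, 2.71 and 2.48 CPM. The log2 fold change was -1.42 (standard error 0.13, FDR 0.000305), and the SDs were 0.161 and 0.199 CPM (n = 3).

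SIK2, a kinase of the SIK1 family, rose as SIK1 did. It had 74.0, 62.7 and 63.0 CPM with vehicle and 104, 86.5 and 85.7 CPM with TGFβ (log2 fold change 0.47, standard error 0.10, FDR 0.0302 with edgeR). The FDR was 0.135 and 0.157 without vehicle replicates 2 and 3 and 0.0975 and 0.0585 without TGFβ replicates 1 and 2. With the block it was 7.81e-05. SIK3 had a log2 fold change of 0.37 that missed the threshold (FDR 0.0964) and passed with the block (FDR 0.00135), as it did with DESeq2 and without a filter on low counts. Per length, SIK1 was 1.24 ± 0.101 times SIK2 with vehicle and 1.17 ± 0.157 times with TGFβ (SD, n = 3).

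PRKAA2, a catalytic subunit of the energy sensor AMPK, rose from 36.5 ± 6.03 CPM to 65.0 ± 14.3 CPM (SD, n = 3), a log2 fold change of 0.83 (FDR 0.0176 with edgeR). It lost the threshold without a filter on low counts (FDR 0.149) and without vehicle replicates 1 and 3 (FDR 0.0722 and 0.105). It did so as well without TGFβ replicates 1 and 2 (FDR 0.0517 and 0.0568). With the block the FDR was 2.6e-06. HNF4A, the liver nuclear receptor at the top of this list in RNA, had a log2 fold change of 0.02 (95% interval -0.17 to 0.20). GCGR, the glucagon receptor, had 23 reads over the vehicle cultures and 89 over the TGFβ cultures (FDR 0.0718 with edgeR, and 0.029 with the block, and it passed without a filter too).

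Known targets of CREB and of FOXO1 were listed to see whether they moved with PCK1 and G6PC. Of 7 tested CREB targets 2 were higher and 0 lower. JUNB, an AP-1 subunit that many signals induce, TGFβ among them, rose from 7.79 ± 0.666 CPM to 98.5 ± 11.5 CPM (SD, n = 3, log2 fold change 3.66, FDR 6.29e-07 with edgeR). DUSP1, a MAP kinase phosphatase, had a log2 fold change of 0.59 (FDR 0.0125). Its FDR was 0.067, 0.0725 and 0.0659 without vehicle replicate 2, vehicle replicate 3 and TGFβ replicate 2, and 0.000809 with the block. NR4A1, an orphan nuclear receptor induced by cAMP in liver, had a log2 fold change of 0.03 (95% interval -0.29 to 0.35), and CREM of 0.07 (95% interval -0.14 to 0.29).

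Of 9 tested FOXO1 targets 2 were lower and 0 higher, and with the block 3 were lower and 2 higher. Of the 9, 4 had a positive log2 fold change, up to 0.36, and the median was -0.09. The genes named next, picked as called or most abundant, all had negative values. BCL6, a transcriptional repressor, fell from 31.4, 24.98 and 24.3 CPM to 15.6, 13.3 and 12.5 CPM (log2 fold change -0.96, standard error 0.12, FDR 0.00206 with edgeR). CITED2, a partner of the coactivators CBP and p300, fell from 15.7, 13.2 and 16.8 CPM to 8.34, 8.04 and 7.52 CPM (log2 fold change -0.94, standard error 0.12, FDR 0.00182). IGFBP1, the insulin-repressed binding protein of IGFs and the most abundant RNA of this list, had 131, 191 and 123 CPM with vehicle and 51.6, 107 and 56.3 CPM with TGFβ. The groups did not overlap, culture 2 was highest in both, and the log2 fold change of -1.05 missed the threshold (FDR 0.0628 with edgeR). It passed with the block (FDR 0.000172) and without TGFβ replicate 2 (FDR 0.0101).

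PDK4, a brake on pyruvate dehydrogenase that is induced in fasting, was too low for testing and was picked out after its values were seen. It had 17 reads over the vehicle cultures and 0 over the TGFβ cultures, at least 6.09-fold lower when the TGFβ group is set at 3 reads, without regard to counting error in the vehicle reads.

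**Figure D5:**
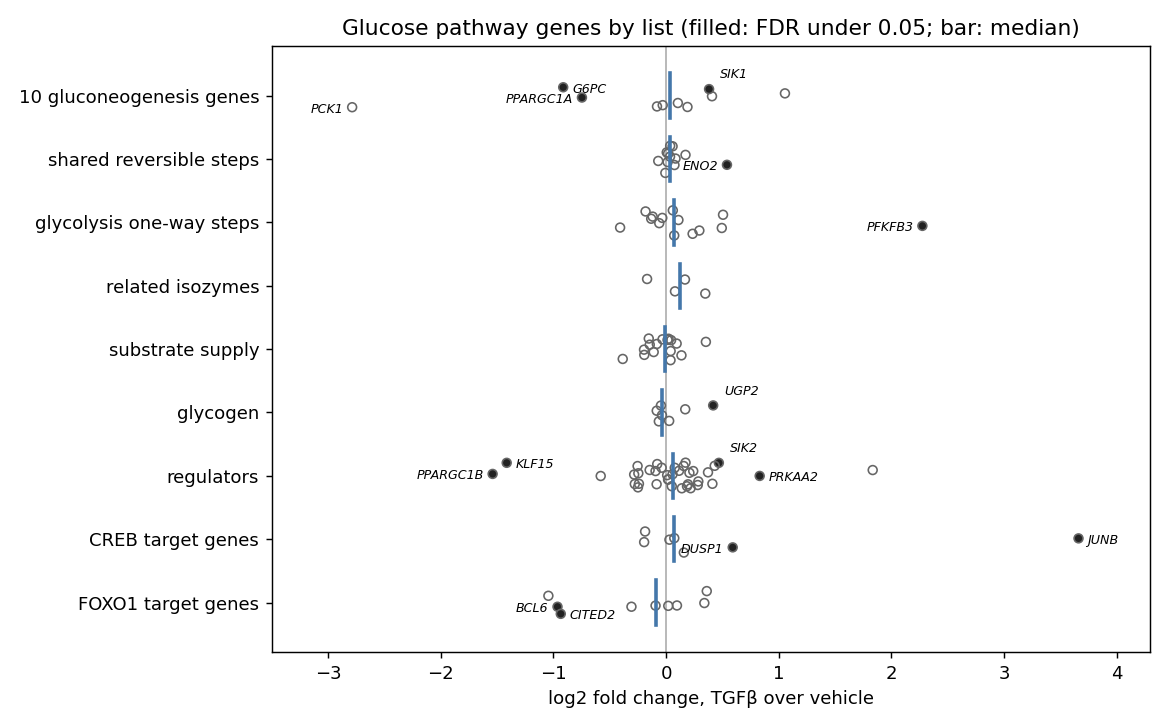
Log2 fold change of TGFβ over vehicle for the tested genes of each list, with filled points at an FDR under 0.05 and blue bars at the list medians; PCK1 has an unfilled point since it was chosen for its fall. Called genes lie on both sides of 0, from PPARGC1B at -1.54 to JUNB at 3.66, and all list medians lie between -0.09 and 0.12.

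The genes most like PCK1 over the 6 cultures were sought by Pearson's r of log2 CPM among 15899 genes with a mean of at least 1 CPM, as a description. All 6 cultures enter r, so it holds the difference between the groups that chose PCK1. The nearest were LRRC8B, a volume-regulated anion channel subunit (r = 0.992), RP11-259N19.1 (r = 0.989), GDNF, a neurotrophic factor (r = 0.989), FAM86JP, a pseudogene (r = 0.987), and RP11-91K9.1 (r = 0.985). Their log2 fold changes were -0.33, -0.77, -1.02, -0.72 and -1.69 in the same order. None of the other 9 members was among these 5. FBP1 could not be, since at 0.0901 CPM with vehicle and 0.186 CPM with TGFβ it lay below the limit of the search.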

How the data were processed

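RNA was measured in 6 HepG2 cultures, grouped and numbered by their labels. The study's methods give paired reads, alignment to hg19 and counting with MAPRseq 2.0.0, and the submitters' processing notes name TopHat2 2.0.6 and HTSeq. The authors deposited raw counts per gene, without normalization, and RPKM values, in which counts are divided by a gene length and by a library total above the sum of gene counts. Counts were used for all tests and RPKM only for levels between genes. For annotation release, strand setting and overlap rule, no source used here gives a value.

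Counts were fitted with edgeR 4.0.16 (limma 3.58.1, R 4.3.3): TMM, filterByExpr, robust quasi-likelihood F test, no block, Benjamini-Hochberg adjustment over 22747 genes. Standard errors come from the F statistic, and 95% intervals from its degrees of freedom. The fit was tested on simulated counts. Within groups, pairs of cultures gave a chi-square per gene from 21.6 to 47.1, above counting noise. Deviations from the group mean correlated at 0.366, 0.227 and 0.316 for numbers 1, 2 and 3. Between different numbers they correlated at most at 0.0101. Cultures of the same number thus deviated together, which the main fit, without a block, does not take into account. The fit with the block is given as an alternative. It is given as counts for the lists whose count it changed, and beside genes whose FDR is printed and whose call it changed. It is also given beside called genes for which lost calls are printed. By the labels, cultures 1 and 2 shared a lane with their partner and cultures 3 did not.

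Members, lists and tests were chosen with earlier results of these data known. The named genes are the members, the called and the most abundant gene of each list, the 5 genes most like PCK1, the tested genes within 250 kb of it, and the treatment markers; other genes were named after their values were seen. Alternatives were scaling by total counts or by DESeq2's size factors, a minimum of 10 counts per library or no filter, limma-voom, DESeq2 1.42.0 without independent filtering, the replicate block, each culture left out and, for PCK1, a ratio of mean raw counts. PECAM1 was not analysed here. Results of 2 genes on the lists are not reported here.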

Additional observations from a re-analysis of the deposited data

How the results depend on the processing

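PCK1 kept its direction in every alternative run, with log2 fold changes from -3.37 to -2.47. This is a description, since PCK1 was chosen for its fall in these same cultures. PPARGC1A was called in 13 of 13 alternatives and G6PC in 8 of 13. Members called higher were 2 without a filter, with DESeq2 and with the replicate block, and between 0 and 1 with a culture left out. Over the whole table, 707 higher and 230 lower calls became 1837 and 853 with the block, and lower calls were 366 without a filter and 388 with DESeq2. They ranged from 394 to 778 higher and from 91 to 220 lower with a culture left out. In the pathway lists, 24 were higher and 10 lower with the block, and between 3 and 8 higher and between 4 and 5 lower with a culture left out. Signs turned for values near 0 that were never called. With total-count scaling HNF4A was -0.0239 and PYGB -0.0137, and without a filter HNF4A was -0.0035. With a culture left out, log2 fold changes of CRTC2 ranged from -0.0973 to 0.055, GAPDH from -0.0161 to 0.139, GLUD1 from -0.121 to 0.0539, HNF4A from -0.0434 to 0.0815, MTRNR2L3 from -0.0358 to 0.266 and PYGB from -0.0188 to 0.0629. The causes were not tested. The block changed the calls of members only for FOXO1. Depth limits FBP1, PDK4 and GCGR, with few reads per culture, and also PCK1 with TGFβ, at 10, 25 and 11 reads.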
